A study of Mus musculus with 8 samples.

Results

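The aldo-keto reductases are NADPH- or NADH-dependent enzymes that reduce aldehydes and ketones to alcohols. In liver they act on steroids, bile acid intermediates, sugars and the reactive aldehydes that come from lipid oxidation. The 8 genes described here were taken by symbol from a table of 16540 genes: *Akr1c6*, *Akr1c12*, *Akr1c13*, *Akr1c14*, *Akr1c19* and *Akr1c20* of the hydroxysteroid dehydrogenase branch, the aldehyde reductase *Akr1a1*, and *Akr7a5*, a reductase of toxic and endogenous dialdehydes. They belong to 20 rows of the family in the table, and all 8 passed the filter on low counts.

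Liver mRNA was sequenced from male *Apoe*-/- mice kept on a Western diet, a knockout that raises plasma cholesterol. The treated group (n = 4) received isoginkgetin (ISOGK), a biflavonoid of *Ginkgo biloba*, by intraperitoneal injection at 20 mg/kg/day for 8 weeks. The control group (n = 4) received vehicle, which the column names give as DMSO. Both groups thus share the genotype, sex and diet, and their age is not given in the sources used here.

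The libraries held between 17457106 and 24461854 counts on genes, and the 8 genes took 0.130% to 0.142% of them in vehicle mice and 0.0737% to 0.109% in ISOGK mice. *Apoe* transcript was counted in both groups, at 191 ± 22.6 and 265 ± 57.5 CPM (CPM is a gene's count normalised to the library total with edgeR's TMM factors), so the genotype rests on the labels. The hepatocyte markers *Alb*, *Apoa1*, *Ttr*, *Serpina1c* and *Tat* summed to between 126463 and 165711 CPM in every library. Most of this was *Alb*, at 105235 to 141273 CPM. Vehicle mouse 4 stood apart in its 7 skeletal muscle markers, which summed to 63.5 CPM there and to at most 0.54 CPM elsewhere. ISOGK mouse 4 stood apart too: its chi-square per gene against the other ISOGK mice was 84.8 to 99.6, against 33.2 to 66.8 among those 3, and its TMM factor was the lowest at 0.883. The Kupffer cell marker *Vsig4* had 5.34 CPM in that mouse and 75.0 to 94.4 CPM in the other ISOGK mice. The other Kupffer cell markers were less apart there. *Cd5l* had 520 CPM (407 to 560 in the other ISOGK mice), *Clec4f* 163 (167 to 205), *Adgre1* 37.04 (37.10 to 57.1) and *Marco* 9.17 (13.8 to 43.9). The list summed to 735 CPM there, against 724 to 943 CPM in the other ISOGK mice. ISOGK mouse 4 also had the lowest level of the 8 mice for *Akr1c6*, *Akr1c14* and *Akr1c20*. Without it their log2 fold changes were -0.63 (edgeR adjusted p = 0.0366), -0.63 (0.0316) and -0.82 (0.00427). Results that rest on a single library are given without it beside each gene. The labels number the libraries as replicates of mice, and p-values measure the spread between these libraries.

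Members of the Akr1c branch resemble each other closely, and this bears on how far reads can tell them apart. All 6 have a coding sequence of 969 bases. Over these bases *Akr1c12* and *Akr1c13* were 96.2% identical, with 37 differences, and *Akr1c6* and *Akr1c20* were 92.3% identical, with 75 differences. *Akr1a1* shared only 53.3% of aligned bases with *Akr1c6*, and *Akr7a5* shared 44.7%. The stretch of 60 coding bases (343 to 402 from the start codon) in which *Akr1c12* and *Akr1c13* differ most is shown for the 6 genes, because it shows where a read can separate the close pairs. Capitals mark bases that differ from *Akr1c12*. The stretch joins 2 neighbouring exons in each gene, and the coordinates (GRCm38, chromosome 13) span the intron between them: chr13:4274392-4275750 (minus strand) for *Akr1c12*, chr13:4194767-4196465 (plus) for *Akr1c13*, chr13:4237126-4238426 (plus) for *Akr1c19*, chr13:4438580-4446384 (plus) for *Akr1c6*, chr13:4511251-4512612 (minus) for *Akr1c20* and chr13:4065415-4078002 (plus) for *Akr1c14*.
Akr1c12: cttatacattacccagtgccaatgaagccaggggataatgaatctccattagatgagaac
Akr1c13: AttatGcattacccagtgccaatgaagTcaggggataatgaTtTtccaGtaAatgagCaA
Akr1c19: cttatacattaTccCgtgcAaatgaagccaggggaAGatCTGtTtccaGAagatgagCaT
Akr1c6: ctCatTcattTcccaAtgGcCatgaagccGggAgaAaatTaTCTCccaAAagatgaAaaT
Akr1c20: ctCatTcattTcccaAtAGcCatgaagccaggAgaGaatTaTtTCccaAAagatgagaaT
Akr1c14: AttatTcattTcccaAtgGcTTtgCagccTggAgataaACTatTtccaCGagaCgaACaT
Even here *Akr1c13* differed from *Akr1c12* at only 9 of 60 bases, against 13 in *Akr1c19*, 16 in *Akr1c20*, 18 in *Akr1c6* and 20 in *Akr1c14*. Of all stretches of 50 bases in the transcripts, 28.6% of those of *Akr1c12* also occurred in *Akr1c13*. The corresponding share was 2.08% for *Akr1c6* (with *Akr1c20*) and 2.17% for *Akr1c20*, so only the pair *Akr1c12* and *Akr1c13* share much sequence at this length. The 50 bases were a chosen setting and were not taken from the reads, so these shares are not shares of ambiguous reads. *Akr1c14* shared 5.90% with the gene model *Gm18857*, *Akr1c19* shared 4.18% with *Marcksl1* and *Marcksl1-ps4*, and *Akr1a1* and *Akr7a5* shared none. How the authors' counting placed reads that match more than 1 gene is not given in the sources used here, so the split of reads between *Akr1c12* and *Akr1c13* is uncertain.

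In ISOGK-treated livers 3 of the 8 genes, *Akr1c6*, *Akr1c14* and *Akr1c20*, fell by 41.6%, 40.8% and 45.5% (edgeR's quasi-likelihood test, adjusted p under 0.05). Across all 12307 tested genes, 423 were lower by the same rule, or 3.44%. None of the 8 was higher, where 506 of all tested genes (4.11%) were. Likewise, 0 of the 8 had an unadjusted p under 0.05 in that direction or were called higher by DESeq2 or limma-voom. Of all tested genes, 1540, 765 and 461 were higher by these rules. None of the 8 passed a log2 fold change of -1, which 77 tested genes (0.626%) did. In 4 of the 8 (*Akr1c6*, *Akr1c12*, *Akr1c14* and *Akr1c20*) every ISOGK mouse lay below every vehicle mouse, as in 906 tested genes (7.36%). The median log2 fold change of the 8 genes was -0.18, and that of all tested genes was 0.0018. In bulk liver, fewer cells of a type and less RNA per cell cannot be told apart.

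**Figure D1:**
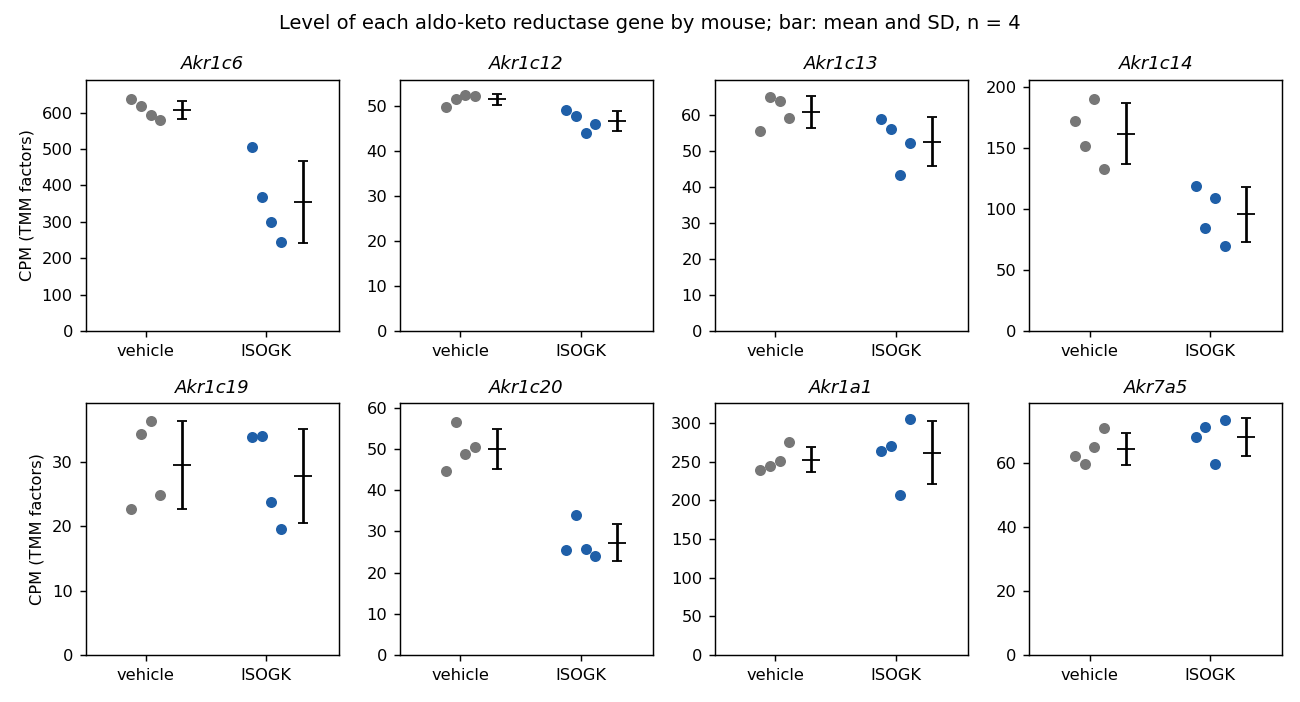
Level of each of the 8 genes in every mouse, in CPM with TMM factors on a linear axis from 0, for vehicle (grey) and ISOGK (blue), with the mean and SD of 4 mice as a bar beside the points. The ISOGK points of Akr1c6, Akr1c14 and Akr1c20 all lie below the vehicle points, those of Akr1c12 lie just below, and the points of Akr1c13, Akr1c19, Akr1a1 and Akr7a5 overlap between groups.

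*Akr1c6* (ENSMUSG00000021210, chr13:4434306-4457877, plus strand) encodes a hydroxysteroid dehydrogenase that reduces androstenedione to testosterone, and it was the most abundant of the 8. Its levels in vehicle mice 1 to 4 were 637, 617, 594 and 579 CPM. In ISOGK mice 1 to 4 they were 505, 367, 299.6 and 245 CPM. The vehicle mice were tightly grouped, whereas the ISOGK mice were widely spread without reaching the vehicle group. The mean fell from 607 ± 25.8 to 354 ± 113 CPM (SD, n = 4), with a log2 fold change of -0.78 ± 0.18 (SE; 95% interval -1.18 to -0.37; edgeR adjusted p = 0.0298). This call was close to the threshold: the fold change stayed between -0.80 and -0.71 but the adjusted p rose to between 0.0605 and 0.0853 when vehicle mouse 1, 2, 3 or 4 or ISOGK mouse 2 or 3 was left out.

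*Akr1c14* (ENSMUSG00000033715, chr13:4049011-4090688, plus strand) is a hydroxysteroid dehydrogenase that acts on steroids and bile acid intermediates. The vehicle mice had 172, 152, 190.4 and 133 CPM, and the ISOGK mice 119, 84.4, 109 and 70.2 CPM. The groups did not overlap, with ISOGK mouse 1 and vehicle mouse 4 nearest to each other. From 162 ± 24.9 CPM the mean fell to 95.8 ± 22.5 CPM, a log2 fold change of -0.76 ± 0.17 (95% interval -1.12 to -0.39; edgeR adjusted p = 0.0219). Without vehicle mouse 1, 2 or 3 or ISOGK mouse 2, the adjusted p lay between 0.0539 and 0.0691, with fold changes from -0.79 to -0.67.

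*Akr1c20* (ENSMUSG00000054757, chr13:4486849-4523345, minus strand), the closest relative of *Akr1c6* among the 8, had the smallest adjusted p of the 8. Vehicle mice had 44.7, 56.5, 48.7 and 50.4 CPM. ISOGK mice had 25.5, 33.9, 25.6 and 24.1 CPM, so that 3 of them were nearly equal and ISOGK mouse 2 was higher, yet still below all vehicle mice. The mean fell from 50.1 ± 4.89 to 27.3 ± 4.49 CPM, with a log2 fold change of -0.88 ± 0.12 (95% interval -1.14 to -0.61; edgeR adjusted p = 0.00178). By p-value it ranked 63 of 12307 tested genes. It was called lower in all 16 alternatives that fitted it as a gene of its own, including the omission of each mouse.

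The other 3 genes of the Akr1c branch were not called. *Akr1c12* (ENSMUSG00000021211, chr13:4268176-4279433, minus strand) had 49.6, 51.5, 52.3 and 52.3 CPM in vehicle mice and 49.0, 47.8, 44.0 and 45.8 CPM in ISOGK mice. The groups were separate but only just, with means of 51.4 ± 1.25 and 46.6 ± 2.20 CPM. Its log2 fold change was -0.14 (95% interval -0.31 to 0.03; edgeR adjusted p = 0.302), and -0.27 (0.0786) with library size alone.

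*Akr1c13* (ENSMUSG00000021213, chr13:4191150-4205596, plus strand), the near copy of *Akr1c12*, had 55.5, 65.2, 64.1 and 59.4 CPM in vehicle mice and 58.9, 56.2, 43.5 and 52.3 CPM in ISOGK mice. ISOGK mice 1 and 2 lay within the vehicle range. The log2 fold change was -0.21 (95% interval -0.44 to 0.02; edgeR adjusted p = 0.247), and -0.35 (0.0732) with library size alone. Because reads of this pair are hard to separate, their counts were also added: the sum was 112 ± 5.39 CPM in vehicle and 99.4 ± 8.89 CPM in ISOGK mice, and fitted as 1 feature it gave -0.18 (edgeR adjusted p = 0.257).

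*Akr1c19* (ENSMUSG00000071551, chr13:4228700-4252843, plus strand) varied within both groups by more than it differed between them. Vehicle mice had 22.6, 34.4, 36.4 and 24.9 CPM and ISOGK mice 33.8, 34.0, 23.7 and 19.6 CPM. Each group held 2 mice with high and 2 with low levels. The log2 fold change was -0.09 (95% interval -0.55 to 0.37; edgeR adjusted p = 0.833), a wide interval that leaves changes of either sign possible, and its sign turned when vehicle mouse 3 (0.02) or ISOGK mouse 4 (0.04) was left out. With library size alone it was -0.22 (edgeR adjusted p = 0.569).

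The 2 genes outside the Akr1c branch lie on chromosome 4 and were not called. *Akr1a1* (ENSMUSG00000028692, chr4:116636510-116651680, minus strand) encodes the aldehyde reductase that converts glucuronate to gulonate, a step of ascorbate synthesis. Its levels were 239, 244, 251 and 276 CPM in vehicle mice and 264, 270.0, 207 and 305 CPM in ISOGK mice. ISOGK mouse 3 was the lowest and ISOGK mouse 4 the highest of the 8, and the log2 fold change was 0.05 (95% interval -0.20 to 0.31; edgeR adjusted p = 0.83). *Akr7a5* (ENSMUSG00000028743, chr4:139310744-139318426, plus strand) had 62.2, 59.8, 65.1 and 71.1 CPM in vehicle mice and 68.3, 71.5, 59.8 and 73.5 CPM in ISOGK mice. The groups overlapped throughout, with a log2 fold change of 0.08 (95% interval -0.13 to 0.29; edgeR adjusted p = 0.652). Scaled by library size alone both estimates were negative (-0.088 for *Akr1a1* and -0.054 for *Akr7a5*), so no direction is given for either gene. With that scaling the median gene shifted by -0.13, and relative to this shift the fold changes of these genes were again slightly positive.

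The order of abundance was compared on a scale of CPM per kilobase of coding sequence. In vehicle livers the level was 626 ± 26.6 for *Akr1c6*, 259 ± 16.5 for *Akr1a1* and 167 ± 25.7 for *Akr1c14*, and the ranges of these 3 genes did not overlap. Below them on this scale came *Akr1c13* at 63.0 ± 4.59, *Akr7a5* at 58.6 ± 4.42, *Akr1c12* at 53.1 ± 1.29 and *Akr1c20* at 51.7 ± 5.05. The range of *Akr1c20* (46.1 to 58.3) overlapped those of the other 3 of these genes, and *Akr1c13* overlapped *Akr7a5*. *Akr1c19* was the lowest at 30.5 ± 7.06. In ISOGK livers *Akr1c20* was at 28.1 ± 4.63 CPM per coding kilobase and *Akr1c19* at 28.7 ± 7.52. That likeness depends on the scale. Per kilobase of all exons the ISOGK means were 14.7 for *Akr1c20* and 4.72 for *Akr1c19*. *Akr1c6* had the highest ISOGK mean, at 365 ± 116 CPM per coding kilobase. Its range of 252 to 521 overlapped that of *Akr1a1*, 213 to 313. In ISOGK mouse 4 *Akr1a1* was the higher of the pair on the coding scale. Reads from untranslated exons are included in these levels, so they rank the genes only roughly.

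Together the 8 Akr1c rows of the table, which include *Akr1c18* and *Akr1c21*, give a measure that does not depend on how reads were split between the copies. Their summed level was 982, 976, 986 and 899 CPM in vehicle mice and 792, 624, 546 and 456 CPM in ISOGK mice. All ISOGK mice lay below all vehicle mice, and the mean was 961 ± 41.6 against 604 ± 142 CPM. The difference of mean log2 CPM was -0.70 (exact permutation test, two-sided, with p = 0.0286, which is the lowest value possible for groups of 4). In vehicle mice *Akr1c6* made up 60.2% to 64.9% of the pool and *Akr1c14* 14.8% to 19.3%. Both were called lower on their own, so the sum mostly restates these calls and is not separate evidence. With any 1 vehicle mouse left out, the exact permutation p was 0.0571 and the difference lay between -0.73 and -0.68.

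The make-up of this pool was also compared. *Akr1c12* made up 5.05% to 5.82% of the Akr1c counts in vehicle mice and 6.19% to 10.04% in ISOGK mice, and *Akr1c13* made up 5.66% to 6.68% and 7.44% to 11.5%. *Akr1c19* went from between 2.30% and 3.69% to between 4.27% and 5.46%, also without overlap. Each of these 3 shares was higher in every ISOGK mouse than in any vehicle mouse, with an exact permutation p of 0.0286, or 0.0571 after adjustment over the 6 genes. The shares of *Akr1c6* (60.2% to 64.9% against 53.6% to 63.8%), *Akr1c14* and *Akr1c20* overlapped between groups, with exact permutation p of 0.0857, 0.686 and 0.429. Shares of 1 pool are not independent, since a lower count of 1 gene raises the share of the rest.

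Ratios within a library cannot be altered by scaling between libraries, and 4 were computed with the sum of *Akr1c12* and *Akr1c13* as the denominator. *Akr1c6* had between 5.10 and 6.06 counts for each count of the pair in vehicle mice and between 2.49 and 4.68 in ISOGK mice. *Akr1c20* had 0.419 to 0.484 and 0.236 to 0.326. Both ratios were separate between groups, with log2 differences of -0.65 and -0.70. For *Akr1c14* the ratio was 1.19 to 1.64 against 0.715 to 1.25, which overlapped, with a log2 difference of -0.59. The *Akr1c19* ratio was 0.215 to 0.313 and 0.200 to 0.327, with a log2 difference of 0.08. Numerators and denominator were chosen after the calls were known, so the ratios describe the calls on another scale and carry no test.

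**Figure D2:**
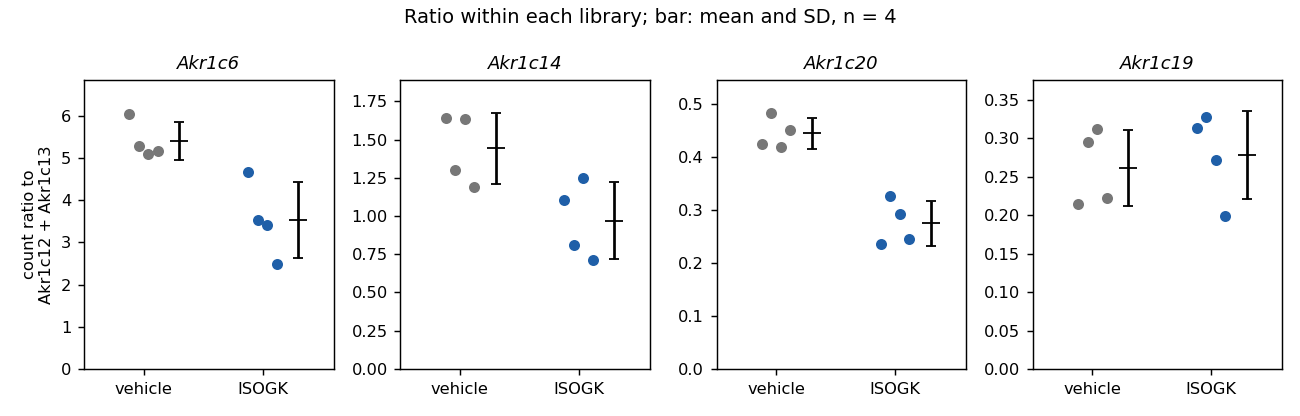
Counts of Akr1c6, Akr1c14, Akr1c20 and Akr1c19 divided by the summed counts of Akr1c12 and Akr1c13 in the same library (unitless, linear axis from 0), with mice as points and the mean and SD of 4 mice as bars. The ratios of Akr1c6 and Akr1c20 are lower in every ISOGK mouse than in any vehicle mouse, those of Akr1c14 overlap at their edges, and those of Akr1c19 overlap fully.

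The 6 Akr1c genes sit in 1 cluster on chromosome 13, between positions 4049011 and 4609174 of GRCm38, together with *Akr1c18*, *Akr1c21* and *Akr1e1*. Its 9 family genes span 560.2 kb. In the order of the chromosome they are *Akr1c14*, *Akr1c18*, *Akr1c13*, *Akr1c19*, *Akr1c12*, *Akr1c6*, *Akr1c20*, *Akr1c21* and *Akr1e1*. The called genes *Akr1c6* and *Akr1c20* are neighbours, on opposite strands, whereas *Akr1c14* lies at the other end with *Akr1c13*, *Akr1c19* and *Akr1c12* between. The end of the cluster is held by *Akr1e1*, a reductase of anhydrofructose, at 27.7 ± 1.26 and 26.1 ± 4.29 CPM (log2 fold change -0.08, edgeR adjusted p = 0.71). Almost no counts were seen for *Akr1c18*, a progesterone-inactivating enzyme of the ovary, and *Akr1c21*, with at most 2 and 1 in any library.

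**Figure D3:**
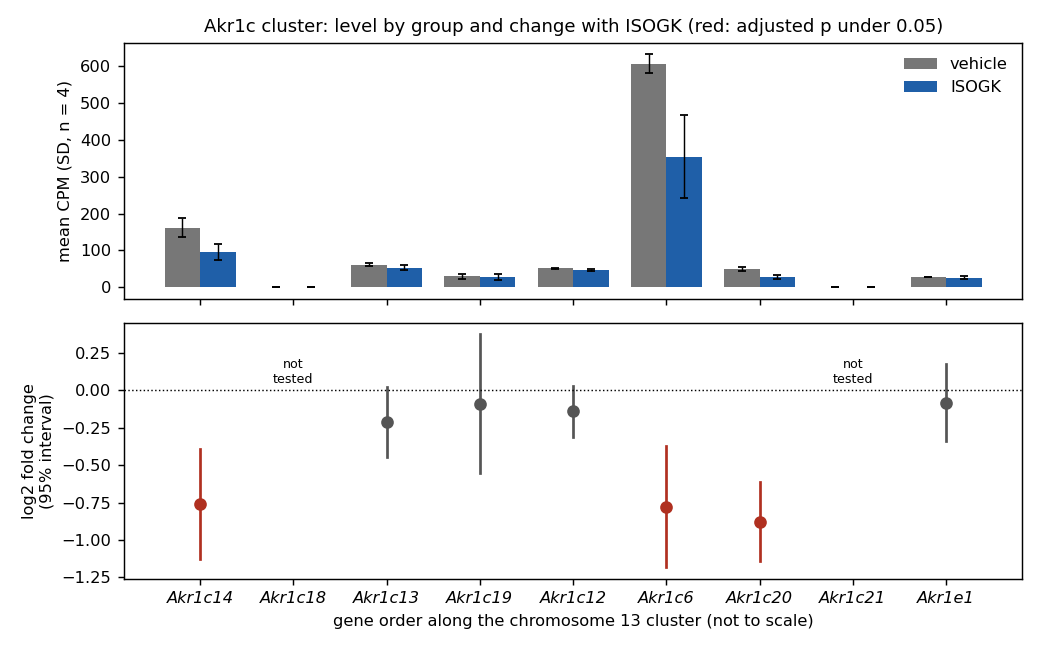
Mean level in CPM (bars from 0, SD of 4 mice; upper panel) and log2 fold change of ISOGK against vehicle with its 95% interval (lower panel) for the 9 family genes of the chromosome 13 cluster, in chromosomal order and not to scale. Akr1c14, Akr1c6 and Akr1c20, in red, have intervals wholly below 0, and the intervals of Akr1c13, Akr1c19, Akr1c12 and Akr1e1 cross 0.

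Sequence upstream of the start sites was available in RefSeq (GRCm38.p6) for 7 of the 8 genes, all but *Akr1c20*. The 250 bases before the start were searched on both strands for 4 motifs. TATAAA, the sequence of the TATA box, occurs in 12.4% of all 32851 windows of this length. Among the 7 genes it occurred in *Akr1c6*, at position -164. These are matches of strings, and whether any of them is a working site was not tested. CCAAT occurs in 33.9% of windows and was found in *Akr1c6* at -57, *Akr1c14* at -152 and *Akr1c19* at -172. Positions are relative to the RefSeq start. For *Akr1c14* (chr13:4059341-4059590) and *Akr1c19* (chr13:4233490-4233739) the window lies wholly inside the gene span given above, not before it. AGGTCA, the core site of many nuclear receptors, occurs in 14.0% of windows and was found in *Akr7a5* at -59. TGACNNNGC, the core of the antioxidant response element, occurs in 10.2% of windows and was in none of the 7. No motif was found in *Akr1c12*, *Akr1c13* or *Akr1a1*, and no 2 of the matches overlapped. The called genes *Akr1c6* and *Akr1c14* share CCAAT, but so does *Akr1c19*, which was not called.

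In the rest of the family, 6 of 12 rows passed the filter on low counts. Of these, 1 was lower (3.44% of all tested genes) and 0 were higher (4.11%). That 1 gene was *Akr1d1* (chr6:37530173-37568815, plus strand), the steroid 5-beta-reductase of bile acid synthesis. Its counts were 2186, 3936, 2439 and 2258 in vehicle mice and 1210, 1353, 1220 and 700 in ISOGK mice. The groups did not overlap, and the mean fell from 115 ± 27.6 to 59.1 ± 15.8 CPM (log2 fold change -0.96 ± 0.22, edgeR adjusted p = 0.0322). Without vehicle mouse 1, 2 or 4 or ISOGK mouse 1 the adjusted p lay between 0.0522 and 0.0691. The polyol-path aldose reductase *Akr1b3* (-0.15, edgeR adjusted p = 0.466), *Akr1b10* (-0.15, 0.767), *Akr1b8* (0.33, 0.291), *Akr1e1* and the potassium channel beta subunit *Kcnab2* (0.12, 0.852) were not called. None of these 6 was higher at an unadjusted p under 0.05 or by DESeq2 or limma-voom. By these rules 1540, 765 and 461 of the 12307 tested genes were higher. *Akr1b7* (2 to 21 counts), *Akr1cl* (0 to 2), *Kcnab1* (2 to 34) and *Kcnab3* (3 to 11) were too low to test. *Akr1b3* shares 59.9% of its stretches of 50 bases with pseudogenes such as *Gm6644*, so its count is uncertain.

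**Figure D4:**
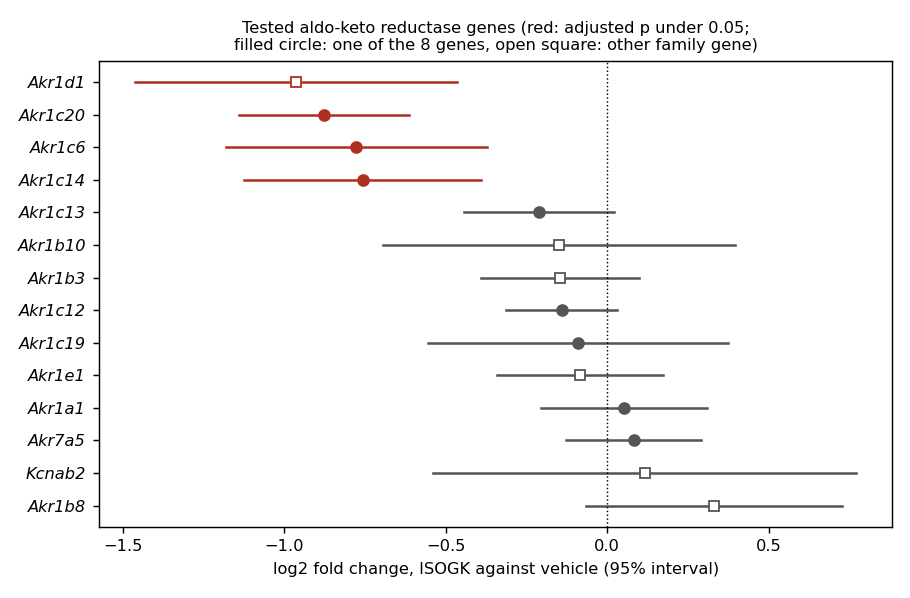
Log2 fold change of ISOGK against vehicle (point) with its 95% interval (line) for the 14 tested genes of the aldo-keto reductase family, with filled circles for the 8 genes described and open squares for other family genes. Akr1d1, Akr1c20, Akr1c6 and Akr1c14, in red, have an edgeR adjusted p under 0.05 and are all negative.

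Other enzymes of the same reactions were read from the same fit, as lists of genes by function. The counts stand against 3.44% of all tested genes lower and 4.11% higher. At an unadjusted p under 0.05, 1433 of the 12307 tested genes were lower and 1540 higher. DESeq2 called 670 lower and 765 higher, and limma-voom 411 and 461. Of 17 tested genes for ketosteroid and carbonyl reduction, 3 were lower and 2 higher, with a median log2 fold change of -0.05. The steroid dehydrogenases *Hsd3b2* (19.6 ± 2.40 to 6.20 ± 2.55 CPM, log2 -1.65, edgeR adjusted p = 0.00572), *Hsd17b6* (-1.43, 0.0209) and *Hsd3b3* (-1.91, 0.0243) fell. Carbonyl reductase *Cbr1* (0.47, 0.0413) and *Hsd17b11* (0.34, 0.0465) rose; they were named after their values were seen, to account for every call. The 3 genes that fell mainly oxidise hydroxysteroids. *Hsd3b5* was not called, though it fell without overlap from 71.4 ± 14.3 to 17.3 ± 14.5 CPM (log2 -2.04, edgeR adjusted p = 0.0708). The steroid reductases *Srd5a1* (-0.37, 0.391), *Srd5a2* (-0.97, 0.074, without overlap) and *Srd5a3* (0.09, 0.736) were not called either. *Hsd3b5* and these reductases were also named after their values were seen. At an unadjusted p under 0.05, 5 genes of the list were lower and 4 higher. DESeq2 called 4 lower and 4 higher, and limma-voom 4 and 2.

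Aldehydes can also be removed by oxidation or by glutathione conjugation. Of 18 such genes tested, 3 were lower and 1 higher (median -0.16). The fatty aldehyde dehydrogenase *Aldh3a2* rose from 244 ± 31.8 to 379 ± 38.2 CPM (log2 0.64, edgeR adjusted p = 0.00805). *Adh1* (-0.59, 0.0229), *Gsta4*, which conjugates hydroxynonenal (-0.62, 0.0258), and *Aldh4a1* of proline breakdown (-0.49, 0.047; named after its value was seen) fell.

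The path around *Akr1a1*, from glucuronate to ascorbate and the polyols, had 4 of 7 tested genes lower (3.44% of all tested genes) and 0 higher (4.11%), with a median of -0.38. No gene of the list was higher at an unadjusted p under 0.05 or by DESeq2 or limma-voom. *Ugp2*, which makes UDP-glucose, fell from 322 ± 42.9 to 181 ± 37.5 CPM (log2 -0.83, edgeR adjusted p = 0.00805). Sorbitol dehydrogenase *Sord* (-0.48, 0.0279), xylulokinase *Xylb* (-0.38, 0.0343) and the gluconolactonase *Rgn* (-0.40, 0.0428; named after its value was seen) were lower too. *Gulo*, the last enzyme of ascorbate synthesis, had -0.22 (0.18) and *Ugdh* 0.26 (0.207), both named after their values were seen, and *Akr1a1* itself, between these steps, had 0.05.

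Of 8 genes that supply NADPH, the cofactor of most of these reductases, 0 were called by edgeR in either direction (median -0.09). At an unadjusted p under 0.05, 1 was higher, malic enzyme *Me1* (0.30, adjusted p = 0.0774), and 0 were lower. DESeq2 called 1 higher and 0 lower, and limma-voom 0. *G6pdx* had -0.21 (adjusted p = 0.405) and *Pgd* -0.17 (0.275). Targets of NRF2, the factor that induces detoxifying enzymes, had 2 of 19 tested genes higher and 2 lower (median 0.09). At an unadjusted p under 0.05, 6 were higher and 3 lower. DESeq2 called 4 higher and 2 lower, and limma-voom 2 and 2. The sulfiredoxin *Srxn1* rose from 32.3 ± 2.84 to 65.0 ± 2.29 CPM (log2 1.01, edgeR adjusted p = 0.000121) and *Gstp1* rose by 0.57 (0.0316). *Gstm3* fell from 26.6 ± 11.4 to 5.46 ± 0.36 CPM (log2 -2.28, 0.00178) and *Gstm1* by 0.52 (0.0322; named after its value was seen).

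The most similar profile over the 8 mice among all tested genes is given for 7 of the 8 genes, as the smallest root mean square difference of standardized log2 CPM. *Akr1c14* was most like *Parp14* (0.149) and *Akr1c20* most like *Pea15a* (0.152). The genes that were not called had *Mapk4* (0.135, *Akr1c12*), *Rdh7* (0.217, *Akr1c13*), *Cdk19* (0.310, *Akr1c19*), *Fkbp8* (0.161, *Akr1a1*) and *Gnas* (0.175, *Akr7a5*). Among the 8 themselves the closest pair was *Akr1c12* with *Akr1c13* (0.382), which share sequence, followed by *Akr1a1* with *Akr7a5* (0.420) and *Akr1c6* with *Akr1c14* (0.442). These likenesses are over 8 mice and carry no test.

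Markers of other liver cells were set beside these results. The 5 Kupffer cell markers summed to between 915 and 1158 CPM in vehicle and between 724 and 943 CPM in ISOGK mice, with 0 of 5 called by edgeR, 1 lower at an unadjusted p under 0.05, and 1 lower by DESeq2 and 0 by limma-voom. The 5 cholangiocyte markers summed to between 27.5 and 34.8 CPM in vehicle and between 28.2 and 69.1 CPM in ISOGK mice, with 1 of 5, *Sox9*, called higher (log2 0.51, edgeR adjusted p = 0.0494). At an unadjusted p under 0.05, 4 of the 5 were higher, DESeq2 called 2 and limma-voom 1, and the median log2 fold change of the list was 0.61. Of all 12307 tested genes, 1540 were higher and 1433 lower at that unadjusted p. DESeq2 called 765 higher and 670 lower, limma-voom 461 and 411, and edgeR 506 and 423. *Krt19* had 1.39 (edgeR adjusted p = 0.055), *Krt7* 1.21 (0.172) and *Spp1* 0.61 (0.188). The sum was 46.6 to 69.1 CPM in ISOGK mice 1 to 3 and within the vehicle range in ISOGK mouse 4. The sums of stellate (266 to 369 against 204 to 396 CPM) and endothelial markers (247 to 280 against 242 to 283 CPM) overlapped between groups. Of 5 stellate markers 0 were called by edgeR or limma-voom, and DESeq2 called 1 lower and 0 higher. At an unadjusted p under 0.05, 1 was lower, *Lrat* (log2 -0.89, edgeR adjusted p = 0.13; named after its value was seen), and 0 were higher. Of 5 endothelial markers 0 were called by any of these rules. Of the 5 hepatocyte markers 0 were called by edgeR or limma-voom, and DESeq2 called 1 higher and 0 lower. At an unadjusted p under 0.05, 1 hepatocyte marker was higher, *Tat* (log2 0.60, edgeR adjusted p = 0.0997), and 0 were lower. The 1 kidney tubule marker in the table had at most 2 counts. No defining marker of the liver cell lists was at 0 in all libraries, and their part in the results was not tested. Without vehicle mouse 4, which held the muscle transcripts, the log2 fold changes were -0.80 for *Akr1c6* (edgeR adjusted p = 0.0605), -0.84 for *Akr1c14* (0.0245) and -0.87 for *Akr1c20* (0.00779).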

How the data were processed

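Liver RNA from 8 mice was prepared as mRNA libraries. The authors aligned single-end reads with HISAT2 to the Ensembl mouse genome and obtained raw counts with StringTie, and mm10 is named in the submitters' processing notes. The deposited table holds these counts per gene symbol without normalization. The annotation release, the use of strand and the handling of reads with several matches are not given in the sources used here.

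Columns named DMSO were taken as vehicle. Genes were filtered with filterByExpr (minimum count 10, minimum total 15), scaled with TMM factors and tested over the whole table in edgeR 4.0.16 under R 4.3.3 (quasi-likelihood, robust option), with Benjamini-Hochberg adjustment at 0.05. Permutation tests over mice were exact and two-sided on log2 CPM or log2 shares, and profiles used log2 CPM with a prior count of 2. Alternatives were DESeq2 1.42.0, limma-voom (limma 3.58.1), other size factors and filters, no robust option, a replicate block, summed copies and each mouse left out. Named were the 8 genes, all other family rows, up to 3 genes per list with the smallest adjusted p and the most similar profile, of which that for *Akr1c6* is not reported here; genes named after their values were seen are marked. The genes and lists were chosen with earlier results of these data known. The scripts were tested on simulated data. Coordinates are from GENCODE for GRCm38. Counts carry no molecular identifiers, so depth gives counting precision only.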

Additional observations from a re-analysis of the deposited data

Results flagged for a closer look

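Among 28 groups of 4 mice examined for a mouse far from the other 3 (14 tested family genes in 2 groups), 2 were past Dixon's 95% critical value for 4 samples, where chance alone gives about 1.4, or 1 in 20. For *Akr1c20* in ISOGK mice the gap took 0.846 of the range, since ISOGK mouse 2 had 33.9 CPM and the others 24.1 to 25.6 CPM. The fall of *Akr1c20* was called with and without that mouse. For *Akr1b8* in ISOGK mice the gap took 0.838 of the range, with 4.82 CPM in ISOGK mouse 4 and 3.22 to 3.48 CPM in the others.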

How the results depend on the processing

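In all 18 alternatives the number of the 8 genes called higher, where it could be counted, was 0. The number called lower was 3 in each, except that leaving out 1 mouse gave 1 to 3 (1 without vehicle mouse 1, 2 or 3 or ISOGK mouse 2, 2 without vehicle mouse 4 or ISOGK mouse 3), and the other family genes called lower numbered 0 to 1 in those fits. Fits with copies summed give no such numbers. The summed Akr1c difference ran from -0.84 to -0.57 with 1 mouse left out. Reversed signs were found for *Akr1a1* (-0.088) and *Akr7a5* (-0.054) with library size alone, and with 1 mouse left out for *Akr1c19* (-0.20 to 0.045), *Akr1a1* (-0.030 to 0.14) and *Akr1e1* (-0.16 to 0.014), none of which was called. Fitted as 1 feature, all Akr1c rows gave -0.67 (edgeR adjusted p = 0.0184), a sum made up mostly of *Akr1c6*. Over all genes, 506 were higher and 423 lower, against 765 and 670 with DESeq2 and 262 and 804 with library size alone, and 219 to 712 and 160 to 523 with 1 mouse left out, both lowest without vehicle mouse 2. Same-numbered mice did not deviate together (correlations 0.013, -0.014, 0.075 and 0.085). The best match had the same number only for vehicle mouse 3 and for ISOGK mouse 4. Vehicle mice 1, 2 and 4 were best matched by ISOGK mice 4, 3 and 2. ISOGK mice 1, 2 and 3 were best matched by vehicle mice 2, 4 and 2. With the replicate block, 3 of the 8 genes were again lower (*Akr1c6* -0.83, *Akr1c14* -0.77, *Akr1c20* -0.88), and 411 of all genes were higher and 416 lower. The cause of these differences was not tested.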
